A study of Mus musculus with 16 samples.

Results

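The CC chemokines Ccl2, Ccl3, Ccl4, Ccl5, Ccl7, Ccl20 and Ccl22 were followed across whole liver and hepatic inflammatory cells of mice with cirrhosis. The 7 genes were chosen by name, as ligands that attract monocytes and T cells, and are 7 of the 33269 gene names on the array. All 7 had a probe. 5 of them were well above background on all 16 arrays, Ccl20 on 7 of 8 liver arrays and 1 of 8 inflammatory cell arrays, and Ccl22 on 0 of 16.

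The mice were C57Bl/6 females fed an atherogenic high-fat diet for 40 weeks, and this holds for every group. The treated mice received adipose tissue-derived stem cells (ADSC), grown from the inguinal fat of GFP-transgenic mice, as 2 injections of 100000 cells 2 weeks apart into the spleen beneath its capsule. Samples were collected 2 weeks after the final injection. The other mice are labelled as treated with PBS, the saline control. Each sample type had 4 arrays per treatment, numbered 11 to 14 after PBS and 7 to 10 after ADSC. Mice on a normal diet were not analysed here, so every value is from a cirrhotic liver. The labels do not say that the arrays of a group came from separate animals, so the p-values measure only the spread between samples, which may be technical. The isolation of the inflammatory cells is not settled either, since the RNA protocol in the labels speaks of tumor-infiltrating cells and of blood.

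Chemokines are small secreted proteins that guide leukocytes along gradients, and the CC family is named for a pair of adjacent cysteines. Ccl2 and Ccl7 bind Ccr2 and draw monocytes out of the bone marrow and into injured liver, where they become macrophages. Ccl3 and Ccl5 bind Ccr1, and together with Ccl4 they attract monocytes, effector T cells and NK cells. Ccl20 is the ligand of Ccr6, found on B cells, on interleukin-17-producing T cells and on some dendritic cells, and Ccl22 is a ligand of Ccr4, found on regulatory and helper T cells. Many of these genes are induced through the transcription factor NF-kappaB. In the mouse genome Ccl2 and Ccl7 are neighbours with 0 protein-coding genes between them, as are Ccl3 and Ccl4, and Ccl5 lies 2 protein-coding genes from Ccl3, all on chromosome 11. Ccl20 is on chromosome 1 and Ccl22 on chromosome 8.

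RNA was labelled with Cy3 and hybridised to one-colour Agilent arrays. All levels are log2 processed signal minus the array's 75th percentile over probes, so 0 is the signal of a fairly bright probe and 1 unit is a doubling. Levels of different genes come from different probes and were not ranked against each other. Genes with a probe well above background on 4 or more of the arrays compared were tested, with limma and Benjamini-Hochberg adjustment over all genes tested and a threshold of 0.05. Of the spots on an array, 51.6% to 66.3% were well above background. The inflammatory cell fraction was set against marker lists. In it, 11 of 11 tested T cell genes and 12 of 12 NK and cytotoxic genes were higher than in liver. All 11 of 11 hepatocyte genes were lower. Over all genes tested, 49% were called higher and 35.2% lower. Cd4, Gzma, Klrk1, Ncr1 and Eomes were well above background on 0 of 8 liver arrays and Cd247 on 1. Hnf4a was so on 0 of 8 inflammatory cell arrays. These genes were tested through 1 sample type alone, which fixed their direction in advance. Transcripts of the exocrine pancreas were uneven within the fraction. The mean log2 level of 10 digestive enzyme genes was 6.37, 8.52 and 8.53 on PBS 11, PBS 13 and ADSC 10, and -1.63 to 2.39 on the other 5 inflammatory cell arrays.

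Inflammatory cells were first set against liver, to show in which sample type each chemokine was measured. Ccl3 exceeded its liver level by a log2 difference of 6.43 ± 0.23 and Ccl4 by 5.95 ± 0.17 (SE, 16 arrays), which is 86.0-fold and 61.8-fold. Ccl5 was 12.3-fold higher and Ccl7 2.01-fold higher. Ccl2, the main attractant of monocytes, did not pass the test, and Ccl20 was lower in inflammatory cells. In whole tissue, fewer cells of a type and less RNA per cell cannot be told apart. Of the 6 genes tested, 4 were higher and 1 lower. The 1 lower, Ccl20, was tested through liver alone, which fixed its direction in advance. Of all genes tested 84.2% passed, made up of 49% of all genes tested in the higher and 35.2% in the lower direction. The median difference of the 6 was 2.31, against 0.36 over all genes tested. With the percentile taken over probes detected on all arrays, the median of all genes moved to 0.68.

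Available promoter sequences are shown for the genes at opposite ends of this comparison, Ccl3, with the largest difference toward inflammatory cells among the 7, and Ccl20, the only one of them toward liver. The RefSeq promoter table (GRCm38.p6) matched 3 of the 7 genes, Ccl3, Ccl20 and Ccl22. The last 150 bases before each annotated start are given, 5′ to 3′ on the gene's strand. Ccl3 lies on the minus strand at chr11:83649379-83649528 and Ccl20 on the plus strand at chr1:83116616-83116765. Capitals mark matches to GGGNNNNNCC, a loose form of the NF-kappaB site, or to TATAA, the core of the TATA box, searched on both strands.
Ccl3: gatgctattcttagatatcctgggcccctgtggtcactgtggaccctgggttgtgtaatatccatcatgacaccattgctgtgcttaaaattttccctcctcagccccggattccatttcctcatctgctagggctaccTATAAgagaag
Ccl20: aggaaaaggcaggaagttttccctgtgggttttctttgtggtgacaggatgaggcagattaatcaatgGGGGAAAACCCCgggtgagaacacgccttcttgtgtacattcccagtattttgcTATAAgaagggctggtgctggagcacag
The Ccl20 window holds overlapping matches to GGGNNNNNCC on both strands between 82 and 71 bases before the start, 1 of them also matching the stricter GGGAANNNCC, and TATAA 28 to 24 bases before the start. In the Ccl3 window TATAA lies 11 to 7 bases before the annotated start, and the letters GGGNNNNNCC are not in it. The Ccl22 window holds 1 match to GGGNNNNNCC on the minus strand, 131 to 122 bases before the start, and no TATAA. Among 32851 promoter windows of the same length, 35.4% held GGGNNNNNCC, 3.07% GGGAANNNCC and 14.2% TATAA.

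**Figure D1:**
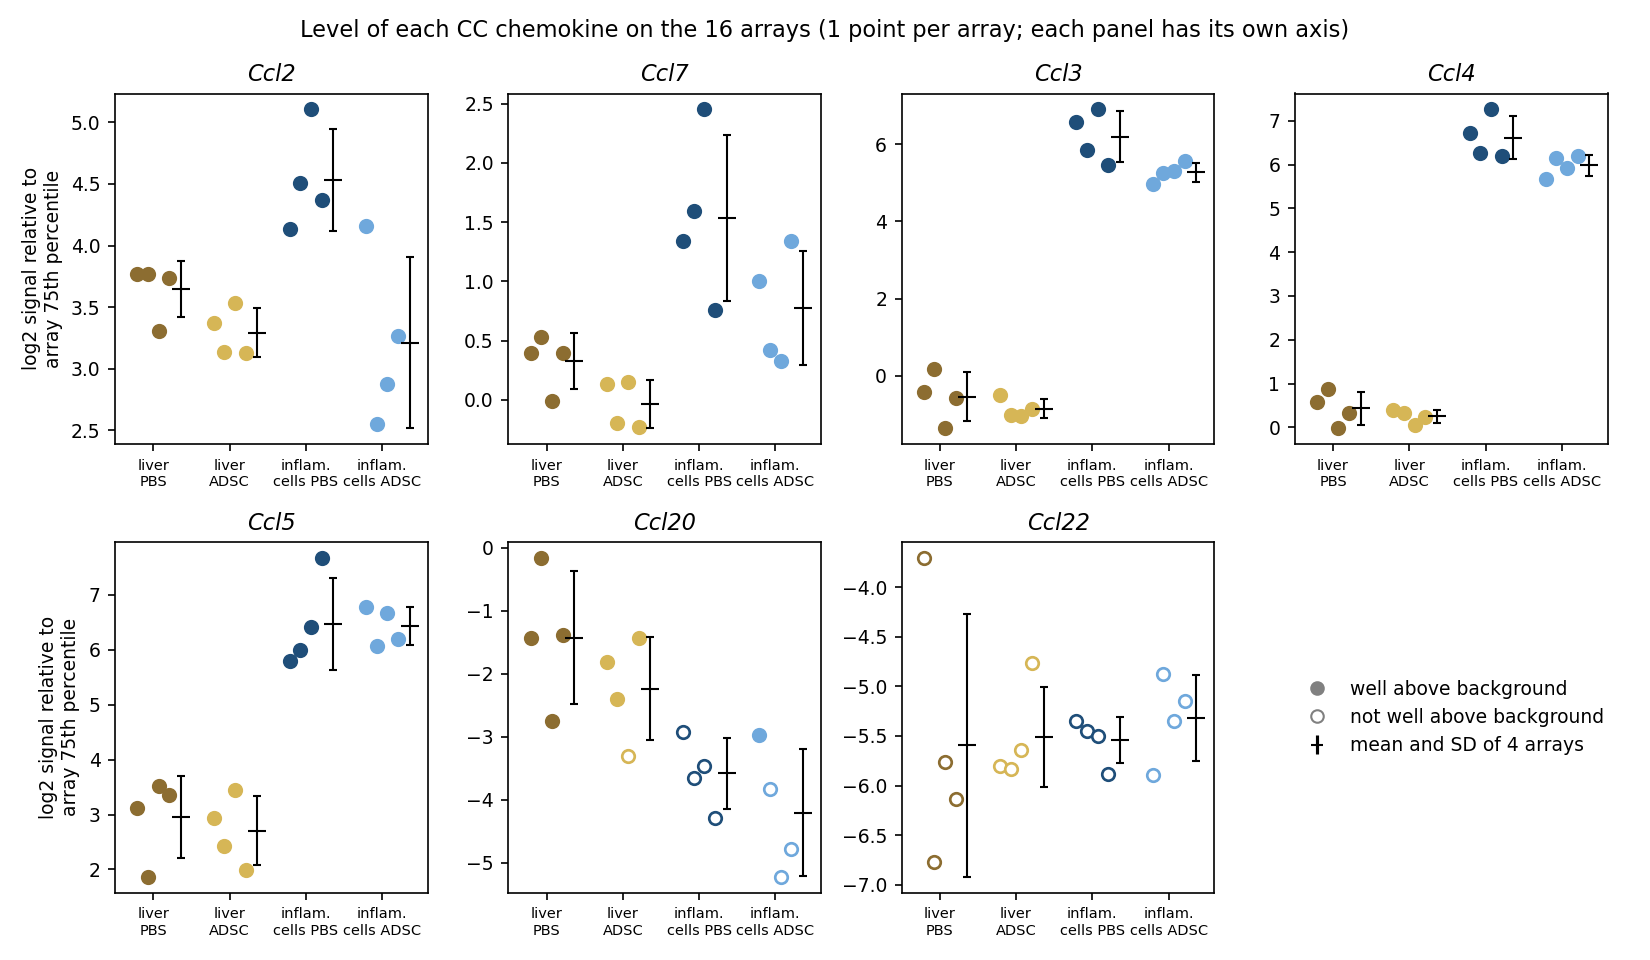
Log2 level of each of the 7 chemokines on every array (vertical axes, relative to the array's 75th percentile; each panel has its own range) in the 4 groups, 1 point per array in the order of the sample numbers, with the mean and SD of 4 arrays beside the points; open points are not well above background. Ccl3, Ccl4 and Ccl5 separate inflammatory cells from liver without overlap, in a comparison where 84.2% of all genes tested passed. Ccl20 is dimmer in inflammatory cells, and every Ccl22 point is open.

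Ccl3 and Ccl4, the inflammatory proteins released by activated macrophages, T cells and NK cells, had the same order of group means. Ccl5 and Ccl7 shared that order. Ccl3 stood at 6.56, 5.86, 6.90 and 5.45 on inflammatory cell arrays PBS 11 to 14 and at 4.97, 5.25, 5.30 and 5.57 on ADSC 7 to 10. In liver it stood at -0.42, 0.18, -1.35 and -0.57 after PBS and at -0.50, -1.01, -1.03 and -0.87 after ADSC. Every inflammatory cell array was above every liver array, and the adjusted p of the difference was 1.63e-12. Ccl4 stood at 6.72, 6.27, 7.26 and 6.19 on inflammatory cell arrays PBS 11 to 14 and at 5.67, 6.15, 5.92 and 6.20 on ADSC 7 to 10. In liver its levels were 0.58, 0.87, -0.02 and 0.33 after PBS and 0.39, 0.33, 0.06 and 0.25 after ADSC. The sample types did not overlap for Ccl4 either, with an adjusted p of 3.69e-13. Here and below, the share of all genes whose sample types did not overlap was not counted. In this comparison 84.2% of all genes tested passed. Without the 3 arrays rich in pancreatic transcripts the differences were 6.11 for Ccl3 and 5.73 for Ccl4.

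Ccl5, made mainly by T cells and NK cells, stood at 5.80, 6.00, 6.42 and 7.67 on inflammatory cell arrays PBS 11 to 14 and at 6.79, 6.08, 6.68 and 6.20 on ADSC 7 to 10. In liver it was at 3.12, 1.87, 3.51 and 3.35 after PBS and 2.94, 2.43, 3.46 and 2.00 after ADSC. Inflammatory cells were higher by 3.62 ± 0.31 (adjusted p = 1.45e-08), and no inflammatory cell array reached down to the liver values. The T cell list moved with it: its mean log2 level over 11 genes was 1.17 to 2.35 on the inflammatory cell arrays and -2.13 to -1.60 on the liver arrays, and its part in the Ccl5 difference was not tested.

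The monocyte attractants differed less between the sample types. Ccl7 stood at 1.34, 1.59, 2.45 and 0.76 on inflammatory cell arrays PBS 11 to 14 and at 1.00, 0.42, 0.33 and 1.34 on ADSC 7 to 10. In liver it stood at 0.40, 0.53, -0.01 and 0.40 after PBS and at 0.13, -0.19, 0.15 and -0.23 after ADSC. Inflammatory cells were higher by 1.01 ± 0.22 (adjusted p = 0.000423). Within each treatment the sample types did not overlap, but inflammatory cells ADSC 8 and 9 were below the level of liver PBS 12. Ccl7 had a second probe, which gave 0.93 for the same difference.

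Ccl2 stood at 4.13, 4.51, 5.10 and 4.37 on inflammatory cell arrays PBS 11 to 14 and at 4.16, 2.55, 2.87 and 3.27 on ADSC 7 to 10. In liver it stood at 3.77, 3.77, 3.31 and 3.73 after PBS and at 3.37, 3.14, 3.54 and 3.13 after ADSC. After PBS all 4 inflammatory cell arrays were above all 4 liver arrays, whereas after ADSC 2 were below, 1 between and 1 above them. Averaged over treatments the difference was 0.40 ± 0.21 (adjusted p = 0.0835, 95% confidence interval -0.04 to 0.84), near the median over all genes. The test was passed with the percentile over probes detected on all arrays (0.72, adjusted p = 0.00328), with normexp correction and quantile normalization (0.83, 0.000468) and without inflammatory cells ADSC 8 (0.51, 0.0254), within a range of 0.000468 to 0.191 over 27 alternatives.

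Ccl20 was the 1 gene of the 6 with a higher level in liver. It stood at -1.43, -0.16, -2.74 and -1.39 in liver after PBS and at -1.81, -2.39, -3.31 and -1.44 after ADSC, where ADSC 9 was not well above background. On inflammatory cell arrays it was at -2.92, -3.65, -3.47 and -4.29 after PBS and at -2.98, -3.84, -5.22 and -4.78 after ADSC, and only ADSC 7 was well above background. Ccl20 was tested through liver alone, which fixed its direction in advance. The log2 difference was -2.06 ± 0.40 (adjusted p = 0.000156 in limma), and its size rests on arrays near the floor. With normexp background correction the smallest size was -0.56, still past the threshold. After PBS, liver was at least 4.45-fold above inflammatory cells. Here and below that is the bright group's mean against, on each array of the dim group, either the probe's own signal or the lowest signal well above background, whichever was higher. The cholangiocyte list holds markers of the bile duct cells that can make Ccl20. Of its 6 genes, 5 were lower in inflammatory cells and 1, Cftr, was higher. Over all genes tested, 35.2% were called lower and 49% higher. The part of this list in the Ccl20 difference was not tested. Ccl22 had no array well above background, its log2 signal lay between -6.77 and -3.70, and no comparison was made for it.

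The other CC ligands and the receptors were measured in the same comparison. Of 12 other CC chemokines tested, 7 were higher in inflammatory cells and 3 lower, a share near the 84.2% of all genes called (49% higher, 35.2% lower). Ccl24, an eosinophil attractant, was higher by 2.95 ± 0.32 and Ccl6 by 1.81 ± 0.18. Ccl1, well above background on 4 of 8 inflammatory cell arrays and 0 of 8 liver arrays, was tested through the inflammatory cells alone. So was Ccl28, a ligand of mucosal tissues, well above background on all 8 inflammatory cell arrays and on 1 of 8 liver arrays. After ADSC, where 0 liver arrays measured it, it was at least 7.93-fold higher in inflammatory cells. Those lower were Ccl27a, with a log2 difference of -2.60 ± 0.14, and, named after their values were seen, Ccl21a, a ligand of Ccr7 made by lymphatic vessels, at -1.72 ± 0.45, and Ccl9 at -0.56 ± 0.14. Of 11 receptors tested and described here, 8 were higher and 1 lower. Counting both directions, their share was near the 84.2% of all genes called. The 8 higher are a larger share than the 49% of all genes called higher. The 1 lower is a smaller share than the 35.2% called lower. Of the 8, Ccr1, Ccr3 and Ccr8 were well above background on 0 of 8 liver arrays and were tested through the inflammatory cells alone. Ccr2 was higher by 2.20 ± 0.22 and Ccr6 by 4.00 ± 0.24. Ccr2 thus passed where its ligand Ccl2 did not. Ccr6 was higher where its ligand Ccl20, tested through liver alone, was lower. Ccr1 was at least 13.2-fold higher in inflammatory cells after PBS. Ccr4, the receptor of Ccl22, was well above background on 2 of 16 arrays, both of inflammatory cells, and was not tested. Ccrl2, an atypical receptor that binds chemerin, was higher by 6.11 ± 0.18 and Ccr7, which guides cells into lymph nodes, by 5.47 ± 0.20.

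**Figure D2:**
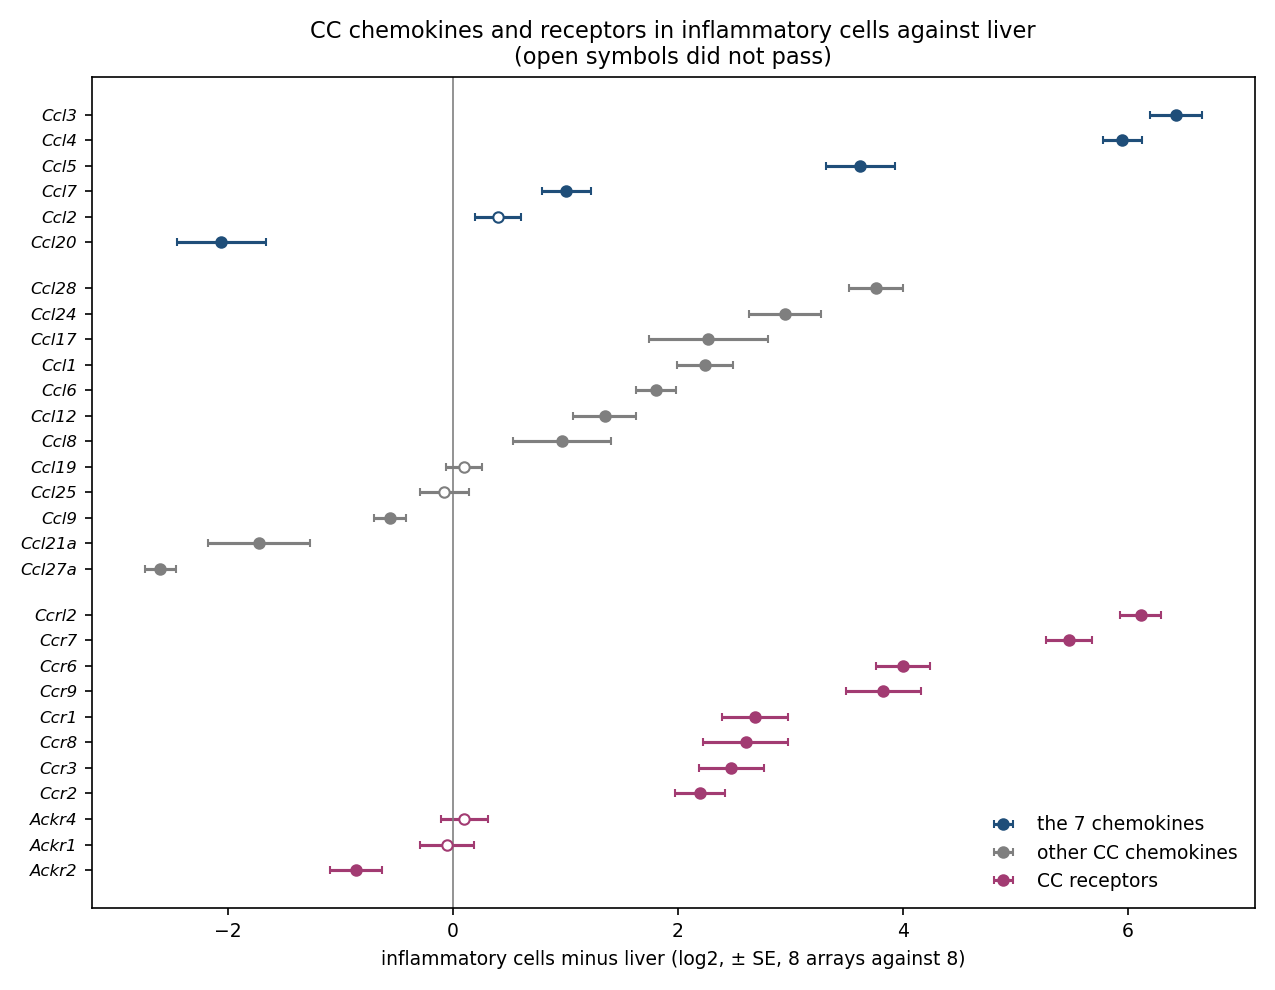
Log2 difference between inflammatory cells and liver (horizontal axis, ± SE, 8 arrays against 8) for the 6 tested chemokines of the 7, 12 other CC chemokines and 11 CC receptors; filled symbols passed the test over all genes. Ccl3 and Ccl4 lie at 6.43 and 5.95, beside the receptor Ccrl2 at 6.11, and Ccl20 lies at -2.06; the points of Ccl20, dim in inflammatory cells, and of Ccl1, Ccl28, Ccr1, Ccr3 and Ccr8, dim in liver, rest on signal near the floor on that side.

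Genes of NF-kappaB signalling and of the early stress response were measured beside these differences. Of 16 NF-kappaB pathway genes, 11 were higher in inflammatory cells and 1, Ikbkg, was lower, with a log2 difference of -1.51 ± 0.12. Rel was well above background on 1 of 8 liver arrays and was tested through the inflammatory cells alone. The 12 of 16 are a smaller share than the 84.2% of all genes called. By direction, the 11 higher are a larger share than the 49% of all genes called higher. The 1 lower is a smaller share than the 35.2% called lower. Those higher included the feedback inhibitors Tnfaip3 by 5.00 ± 0.18 and Nfkbia by 3.50 ± 0.18, and also Nfkbiz by 4.48 ± 0.19. All 13 genes of the stress and immediate early list, which cells also switch on during tissue digestion, were higher, with a median of 4.88. Of this list, Fosb was well above background on 1 of 8 liver arrays and was likewise tested through the inflammatory cells alone. The list's mean log2 level was 5.15 to 6.66 on the inflammatory cell arrays and 0.16 to 0.76 on the liver arrays. The part of this shift in the Ccl3 and Ccl4 differences was not tested, and cell isolation and sample type cannot be told apart in this design.

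Treatment with ADSC was then compared with PBS within the inflammatory cells. The estimates of Ccl2, Ccl3, Ccl4 and Ccl7 were below 0, at -1.32 to -0.63, and Ccl5 was at -0.04. None of the 5 tested genes passed, where 1.22% of all 20179 genes tested passed with limma. At an unadjusted p under 0.05 were 3 of the 5, Ccl2, Ccl3 and Ccl4, and 3737 of all genes. The median of the 5 was -0.76, against 0.03 over all genes, and 0 of the 5 had groups that did not overlap, a share of 10.4% over all genes.

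Ccl2 had the largest estimate of the 5. 3 of 4 ADSC arrays lay below every PBS array, and ADSC 7, at 4.16, lay among them. The difference was -1.32 ± 0.35 (SE, n = 4 per group, 95% confidence interval -2.09 to -0.54, adjusted p = 0.114). Without ADSC 7 it was -1.63 with an adjusted p of 0.0271. It also passed with array weights (-1.41, adjusted p = 0.00947) and with the spread shared over all 16 arrays (adjusted p = 0.0214), within a range of 0.00947 to 0.293 over 19 alternatives. Within slide 2 the difference was -1.58 and within slide 3 it was -0.35, with 1 array against 1 in each. With slide as a block it was -0.97 (adjusted p = 0.178), from those 4 arrays. Ccl7 was at -0.76 ± 0.37 (adjusted p = 0.293), with 2 ADSC arrays below every PBS array, and its second probe gave -0.77.

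Ccl3 was at -0.92 ± 0.32 (adjusted p = 0.189) and Ccl4 at -0.63 ± 0.27 (adjusted p = 0.257). For both, 3 of 4 ADSC arrays were below every PBS array and ADSC 10 was not. PBS 13, 1 of the 3 arrays rich in pancreatic transcripts, was the highest inflammatory cell array for Ccl2, Ccl3, Ccl4 and Ccl7. Without those 3 arrays Ccl3 moved to -0.48 and Ccl4 to -0.32, with adjusted p-values of 0.280 and 0.451, while Ccl2 was at -1.24 (adjusted p = 0.182). Ccl5 was at -0.04 ± 0.39 (adjusted p = 0.972, 95% confidence interval -0.89 to 0.81), and its sign turned in 8 of 19 alternatives, to at most 0.53 with slide as a block. Its highest array was PBS 14 and its lowest PBS 11, so its spread lay within the PBS group. Ccl20 and Ccl22 were too dim in inflammatory cells to be tested.

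**Figure D3:**
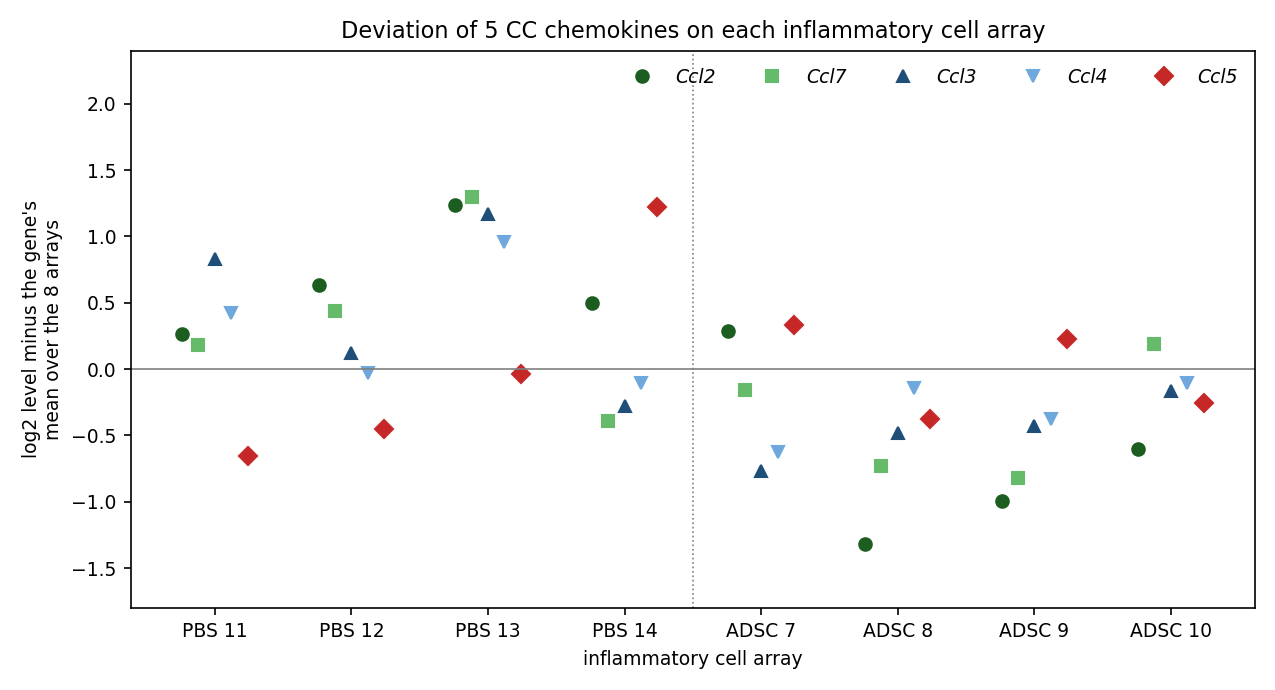
Log2 level of the 5 chemokines detected on every inflammatory cell array, minus that gene's mean over the 8 arrays (vertical axis), for PBS 11 to 14 and ADSC 7 to 10 (horizontal axis). PBS 13 is the highest array of Ccl2, Ccl7, Ccl3 and Ccl4, and the Ccl5 points are highest on PBS 14 and lowest on PBS 11.

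Among the receptors in inflammatory cells, 1 of these 11 passed, lower after ADSC, as did 1.09% of all genes in that direction. Ccr1, a receptor of Ccl3 and Ccl5 on neutrophils and monocytes, stood at -1.32, -0.91, -1.48 and -2.33 on PBS 11 to 14 and at -4.29, -4.59, -2.40 and -4.54 on ADSC 7 to 10, where only ADSC 9 was well above background. The gene was thus measured on 4 of 4 PBS arrays and 1 of 4 ADSC arrays, and was tested because of the PBS group. The groups did not overlap. The fitted log2 difference was -2.45 ± 0.48 (adjusted p = 0.0391), but its size rests on 3 ADSC arrays near the floor and is not a measured fold. With normexp background correction it was -0.70 and the call was lost (adjusted p = 0.141). The call was lost in 12 of 17 alternatives, with adjusted p-values of 0.00475 to 0.141, among them each array left out other than PBS 14 and ADSC 9. Ccr1 was not tested in liver, where no array measured it, so its effects in the sample types were not compared.

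Ccr2 and Ccr6 did not pass. Ccr2, the receptor of Ccl2 and Ccl7 that marks recruited monocytes, stood at 2.03, 2.41, 3.70 and 3.02 after PBS and at 1.45, 1.61, 1.65 and 1.72 after ADSC. Its groups did not overlap, as for 6.67% of all genes in that direction, and its difference was -1.18 ± 0.33 (adjusted p = 0.126). It passed with array weights (0.0228) and with all 16 arrays in the fit (0.0460), within a range of 0.0228 to 0.281 over 19 alternatives. Ccr6, the receptor of Ccl20, stood at 1.43, 1.18, 1.33 and 0.98 after PBS and at 3.19, 1.62, 2.60 and 2.36 after ADSC. Those groups did not overlap either, as for 3.69% of all genes in the higher direction, and the difference was 1.21 ± 0.31 (adjusted p = 0.0991). It passed with array weights (0.0109) and without ADSC 8 (0.0424), within a range of 0.0109 to 0.289. Ccrl2 was at -1.13 ± 0.28 (adjusted p = 0.0928). Of the 12 other CC ligands tested, 0 passed. The smallest p-values were those of Ccl6 at -1.19 ± 0.27 (adjusted p = 0.0713), Ccl9 at -1.06 ± 0.25 (0.0753) and Ccl12, a further Ccr2 ligand of the mouse, at -0.88 ± 0.30 (0.185). Of 16 NF-kappaB pathway genes 0 passed (median -0.13), and the smallest adjusted p, 0.119, was that of Myd88 at -0.77 ± 0.21.

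Markers of some, not all, of the cells that make or follow these chemokines moved with the treatment. In this comparison 1.09% of all genes were called lower. Of 13 neutrophil genes 11 fell, among them Camp at -4.34 ± 0.45, Ctsg at -4.54 ± 0.44 and Mmp8 at -3.77 ± 0.37. Elane, 1 of the 13, was well above background on 4 of 4 PBS arrays and 1 of 4 ADSC arrays. It was tested because of the PBS group, which fixed its direction in advance. The neutrophil list's mean log2 level was 4.09 to 5.95 on the PBS arrays and 1.08 to 1.87 on the ADSC arrays of inflammatory cells. Of 13 monocyte and macrophage genes 4 fell: Ly6c1 at -2.47 ± 0.27, Cd14 at -1.99 ± 0.34, Fcgr3 at -1.74 ± 0.25 and Fcgr1 at -1.53 ± 0.27. Ly6c2, on the same list, had no probe named for it, and which cells gave the signal of these genes was not tested. That list's mean level was 2.71 to 2.95 after PBS and 1.50 to 1.88 after ADSC. Of 7 Kupffer cell genes 2 fell, Slc40a1 at -1.59 ± 0.29 and Cd5l at -1.70 ± 0.36. Without the 3 arrays rich in pancreatic transcripts 0 of all genes were called, so each of these calls was lost; 4601 genes then had an unadjusted p under 0.05 in limma, and the medians of the lists were -3.46, -1.29 and -2.20 against -3.77, -0.97 and -1.59 with all 8 arrays. With slide as a block 29 of all genes were called, 5 of them neutrophil genes and 0 from the other lists. The monocyte and macrophage count was 2 without PBS 12, ADSC 9 or ADSC 10, and the Kupffer cell count was 0 without PBS 12, PBS 14, ADSC 8 or ADSC 9 and 1 without PBS 13 or ADSC 7. The T cell list lay at 1.17 to 2.35 after PBS and 1.50 to 2.27 after ADSC, with 0 of 11 genes called, and 0 of 12 NK and cytotoxic genes were called. All 8 B cell genes tested, a cell type that carries Ccr6, had estimates above 0, with a median of 1.02 and 0 called. The part of these shifts in the estimates of the chemokines and receptors was not tested.

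**Figure D4:**
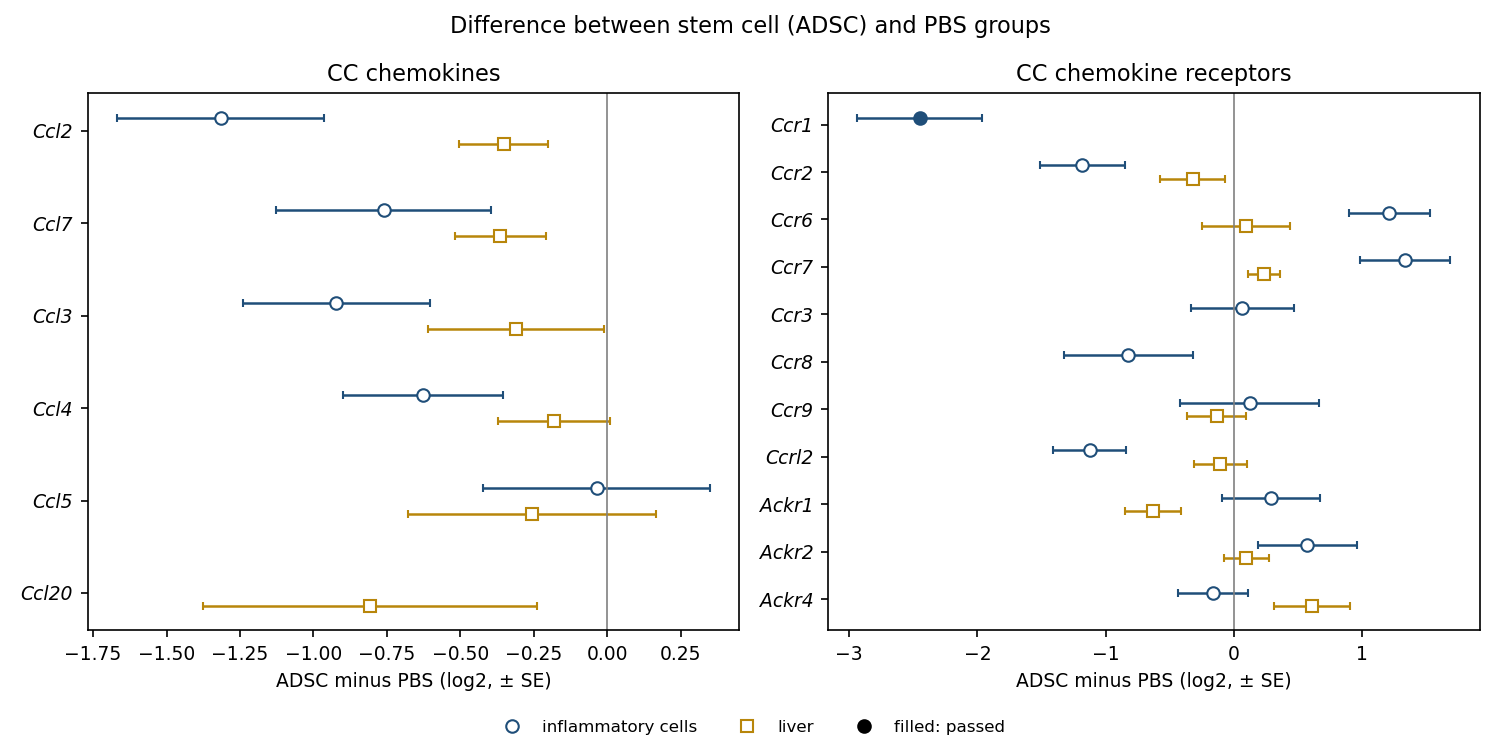
Log2 difference between ADSC and PBS (horizontal axes, ± SE, 4 arrays against 4) in inflammatory cells (circles) and liver (squares), for the 6 chemokines tested in at least 1 sample type (left) and 11 receptors (right); filled symbols passed the test over all genes. The chemokine estimates lie at or below 0, none is filled, and Ccr1 in inflammatory cells, at -2.45 with 3 of 4 ADSC arrays not well above background, is the only filled symbol.

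In liver, ADSC was set against PBS to ask whether the tissue as a whole changed. None of the 6 genes tested passed, and 0% of all 17331 genes tested did with limma, while 806 of all genes had an unadjusted p under 0.05. Ccl2 was at -0.35 ± 0.15, Ccl7 at -0.36 ± 0.15, Ccl3 at -0.31 ± 0.30, Ccl4 at -0.18 ± 0.19, Ccl5 at -0.26 ± 0.42 and Ccl20 at -0.81 ± 0.57, each with an adjusted p of 0.998. Ccl2 and Ccl7 had unadjusted p-values of 0.0470 and 0.0448 in the same limma fit. All 6 estimates were below 0, with a median of -0.33 against 0.04 over all genes, and the groups of all 6 overlapped, where 2.93% of all genes had groups that did not, 1.23% with ADSC lower and 1.69% with ADSC higher. The direction turned within a slide. PBS 13 and ADSC 7 shared slide 2, the only slide with liver arrays of both treatments, and there ADSC was higher by 0.06 for Ccl2, 0.86 for Ccl3, 0.41 for Ccl4, 0.14 for Ccl7 and 0.93 for Ccl20, while Ccl5 was at -0.57. PBS 13 was the lowest liver array for Ccl3 and Ccl4 and the highest for Ccl5. The neutrophil list lay at -0.16 to 3.53 in liver after PBS and at -2.20 to -0.89 after ADSC, and its part in these estimates was not tested. Of 8 CC receptors and 10 other CC ligands tested in liver, 0 passed, with medians of -0.0072 and -0.31.

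The treatment effect in inflammatory cells was set against that in liver in 1 fit of all 16 arrays. None of 6 genes passed, where 0.0316% of all 22147 genes did. The difference was -0.96 ± 0.42 for Ccl2 (adjusted p = 0.464), -0.61 ± 0.46 for Ccl3, -0.44 ± 0.34 for Ccl4, -0.40 ± 0.43 for Ccl7, and 0.22 ± 0.61 for Ccl5. The fit also gave 0.19 ± 0.79 for Ccl20, which is not a measured difference of effects, since 1 of 8 inflammatory cell arrays was well above background and the gene was tested through liver alone. Of the 6, Ccl2 alone had a 95% confidence interval without 0, at -1.85 to -0.08. The interval for Ccl3 was -1.59 to 0.37 and that for Ccl5 -1.08 to 1.52. With slide as a block Ccl3 moved to -1.61, Ccl4 to -1.03 and Ccl7 to -1.15, none of them passing.

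Each gene's pattern over the 16 arrays was last compared with that of 13210 detected genes with a symbol. The measure was the root mean square difference of log2 levels after centring each gene on its own mean, and it is a description of arrays that share sample type and treatment. The nearest gene to both Ccl3 and Ccl4 was Ccrl2, at 0.28 and 0.29, and the second nearest of each was the other, at 0.32. Ccl2 was nearest to Acot9 (0.29) and Mfsd14b (0.30), and Ccl7 to Clic1 (0.30) and Ccdc12 (0.31). Ccl2 and Ccl7, neighbours in the genome that share Ccr2, were 0.47 apart and ranked 264 and 262 of 13210 in each other's lists. The next nearest of the chemokines compared was Ccl20 for Ccl2, at 1.46, and Ccl5 for Ccl7, at 1.54. Ccl5 was nearest to Vmn1r89 (0.46) and to Skap1 (0.48), an adaptor of T cell receptor signalling. Ccl20 was nearest to Slc7a4 (0.62) and Smarcd3 (0.64). Ccl22 was not compared.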

How the data were processed

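Total RNA of 16 samples was hybridised to 1-colour Agilent arrays. Per the file headers, the processed signal is a linear intensity made with Agilent Feature Extraction 10.5.1.1 on a probe design of build mm8, background-subtracted and detrended within an array but not normalized between arrays. The deposited value table holds the same linear intensity (largest relative difference 0; column medians 30.6 to 90.9), so it was not centred or log-transformed. The files' marks for control, outlying, saturated and well-above-background spots were used as deposited by the authors.

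Outlying spots were left out, 0 spots were saturated, spots of a probe were averaged on the log2 scale, and each array was scaled to the 75th percentile of its non-control probes. Of 41174 probes, 23374 were named through their accession with RefSeq (GRCm38.p6), and the others kept the name in the file; no gene positions are taken across builds. The brightest probe stood for a gene. Models were fitted in R 4.3.3 with limma 3.58.1 (lmFit, eBayes): ADSC against PBS over 8 arrays of a sample type, and sample type and the difference of effects over all 16 arrays. The fits of ADSC against PBS were tested on simulated data with independent noise and log2 changes of 2 and 3. Of 100 changed genes at each size, 85 to 97 were recovered, with 12 false calls in inflammatory cells and 5 in liver. Smaller changes, such as the chemokine estimates for ADSC against PBS, were not simulated. The number of arrays limits the precision.

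The 7 genes and all lists were chosen with earlier results of these data known. Genes named were the 7, their receptors, the members of other lists with the 3 smallest p-values or past the threshold (up to 6), and the 2 genes nearest in pattern to each; 1 gene of the receptor list is not reported here and is left out of that list's counts. Alternatives were normexp background correction (offset 50, on the median spot signal, a choice made after seeing the files, which hold no mean signal), quantile normalization, another percentile, other filters and probe rules, slide, scan day, array weights, all 16 arrays, each array left out, and the 3 pancreas-rich arrays left out. For the counts of neutrophil, monocyte and Kupffer cell genes they were added after seeing the data. Arrays lay on 5 slides, scanned on 3 days; within-slide values stand in the report.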

Additional observations from a re-analysis of the deposited data

Results flagged for a closer look

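Of 28 pairs of a chemokine and a group of 4 arrays examined for a lone array, 1 met Dixon's criterion, and chance gives about 1 in 20. Ccl2 in liver PBS 13 was at 3.31, below the other 3 liver PBS arrays, the nearest of which was at 3.73, a gap of 0.916 of the group's range. The same array was the PBS array on the only slide that held liver arrays of both treatments.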

How the results depend on the processing

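Of 662 recomputed values for the 6 chemokines tested and 3 receptors, 614 kept their direction and side of the threshold. The count of chemokines called was 0 in liver and 0 for the difference of effects in every alternative, 4 to 6 between sample types, and 1 (Ccl2) in inflammatory cells with array weights, with all 16 arrays in the fit and without ADSC 7 (0 to 1 over arrays left out in turn). In liver, with slide as a block and with scan day, signs turned for Ccl2 (0.065 and 0.15), Ccl3 (0.86 and 0.59), Ccl4 (0.41 and 0.24), Ccl7 (0.14 and 0.15) and Ccl20 (0.93 and 0.18). Both settings rest on liver PBS 13, the only liver PBS array on slide 2 and on scan day 2, so they are not independent of each other. Ccl5 in inflammatory cells turned to 0.086 with the percentile over detected probes, 0.051 with array weights, 0.18 with normexp and quantile normalization, 0.33 with scan day and 0.53 with slide (-0.26 to 0.36 over arrays left out). For the difference of effects, Ccl20, dim in inflammatory cells, turned to -0.46 with array weights (-0.24 to 0.62 over arrays left out) and Ccl5 to -0.067 without the 3 pancreas-rich arrays (-0.016 to 0.62).

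Over all genes, calls in inflammatory cells went from 246 (27 higher, 219 lower) to 140 with the other percentile, 915 with all 16 arrays, 4466 with array weights (2637 higher, 1829 lower), 115 with no filter, 375 with normexp, 160 with scan day, 29 with slide, 0 without the 3 pancreas-rich arrays and 71 to 511 over arrays left out. In liver they went from 0 to 9, 13 and 1 with all 16 arrays, array weights and mean probes. Between sample types 10431 were called with probes above background on every array (4860 higher, 5571 lower), and the other percentile gave 12285 higher and 6405 lower against 10861 and 7797. For the difference of effects 7 became 1 with the other percentile, 914 with array weights, 33 and 74 with normexp, 64 with probes above background on every array, 0 with no filter, slide, scan day or without the pancreas-rich arrays, and 0 to 46 over arrays left out. The cause of these shifts was not tested. Where 1 array was left out, the group kept 3.

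Sample numbers recur in liver and inflammatory cells. Same-numbered arrays correlated at -0.06 to 0.17 in their deviations over 22117 genes, so the numbers were not shown to pair them. With a replicate block, 5 of 6 chemokines and 18402 genes were called between sample types, and 0 chemokines and 0 genes for the difference of effects. No paired analysis was possible for ADSC against PBS because the groups share no number.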
